A study of Mus musculus with 6 samples.

Results

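The GIMAP genes (GTPases of immunity-associated proteins) were followed in the lungs of mice with an impaired glucocorticoid receptor (GR) after hemorrhagic shock (HS). All 8 genes of the family that were looked for, Gimap1, Gimap3, Gimap4, Gimap5, Gimap6, Gimap7, Gimap8 and Gimap9, were found by symbol among the 54532 genes of the deposited count table. Members were taken by family name. In GRdim/dim mice, both copies of Nr3c1, which encodes the GR, hold a point mutation with which the receptor forms dimers poorly, and GR+/+ mice have the wild-type gene. The mutation is in the germline and not limited to a cell type. All mice were of a mixed 129/SvEv x C57BL/6 strain and 10 to 16 weeks old. Both genotypes were anesthetized, ventilated, bled to a mean arterial pressure of 35 mmHg, held there for 1 h of HS and then resuscitated for 4 h. Lungs from mice without shock are not analysed here, so the values compare genotypes after HS and do not show a response to HS. Each of the 6 libraries came from poly(A) RNA of 1 lung, with 3 libraries per genotype. Counts summed to between 15687734 and 32082940 per library.

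GIMAP proteins are GTP-binding proteins of lymphocytes that sit on membranes of mitochondria, lysosomes, the Golgi apparatus or the endoplasmic reticulum. Some of them are needed for the survival of T and B cells outside the bone marrow and thymus, and loss of Gimap5 in rodents leads to a severe loss of T cells. Their genes lie side by side as a tandem cluster. Glucocorticoids, acting through the GR, are known to lower the number of lymphocytes in blood and to induce the death of thymocytes.

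In these lungs, no GIMAP gene was called different between genotypes by edgeR's quasi-likelihood test. A call required that the p-value after Benjamini-Hochberg adjustment was under 0.05 and that the log2 fold change was beyond 0.5 in either direction, and 0.169% of the 16568 genes tested met it. All 8 members had enough reads to be tested, 0 were called, and 1 had an unadjusted p-value under 0.05. This gene was Gimap3, which was 2.47-fold higher in GRdim/dim lungs and whose libraries did not overlap between genotypes. The libraries of the other 7 genes overlapped. Gimap3 was set apart from the other members only after its values had been seen.

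The family is held together by its GTP-binding domain, and its nucleotide-binding P-loop was read from the coding sequences to show how close the members are. The P-loop motif was found once in 7 genes and 3 times in Gimap8, whose protein of 688 residues is about as long as a pair of the others, which have 291 to 328 residues. The coding stretches below are given 5′ to 3′ on the coding strand with their positions in the mouse genome build GRCm38, and capitals mark the codons of the first glycine and of the closing glycine, lysine and serine. They are shown because Gimap3 and Gimap5 have the same 24 bases here. Gimap4, Gimap6 and Gimap7 differ from them at several bases, some of which change residues between the marked codons.
Gimap3 (chr6:48765887-48765910, minus strand): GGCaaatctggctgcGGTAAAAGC
Gimap5 (chr6:48752594-48752617, plus strand): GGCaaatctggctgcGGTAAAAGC
Gimap4 (chr6:48690421-48690444, plus strand): GGAaaaactggagcaGGAAAGAGT
Gimap6 (chr6:48702750-48702773, minus strand): GGGaaaacaggaagcGGGAAAAGT
Gimap7 (chr6:48723524-48723547, plus strand): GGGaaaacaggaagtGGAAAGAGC

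Gimap3 and Gimap5 were the closest pair of the family. Their proteins were identical at 249 of 298 aligned residues (83.6%), and 87.9% of their aligned coding bases were the same, with a longest identical run of 140 bases. The next closest pair, Gimap7 and Gimap9, had 54.4% identical residues. Of the windows of 31 bases in the transcripts of Gimap3, 13.2% also occur in transcripts of Gimap5, and 8.02% of those of Gimap5 occur in Gimap3. Reads wholly within these stretches could not be assigned to one of the genes by sequence, and read length was not taken into account. How the authors' counting treated such reads is not given in the sources used here. The counts of both genes are therefore uncertain to an extent that these shares do not measure. Gimap1 was the other gene with much shared sequence. Of its windows, 38.2% were shared with another gene, 33.9% with Gimap1os on the opposite strand.

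Gimap3 encodes a GTPase of the endoplasmic reticulum and mitochondria that has been linked to T cell numbers. Its gene (ENSMUSG00000039264) lies at chr6:48764464-48770851 on the minus strand, at one end of the cluster. In counts per 1e+06 counts of the library (CPM, with edgeR's TMM factors), Gimap3 reached 17.7, 32.0 and 11.4 in GR+/+ libraries 1, 2 and 3 and 38.2, 67.5 and 44.4 in GRdim/dim libraries 1, 2 and 3. Every GRdim/dim library was above every GR+/+ library, and the closest pair was GRdim/dim library 1 and GR+/+ library 2. The mean was 20.3 ± 10.5 CPM in GR+/+ and 50.05 ± 15.5 CPM in GRdim/dim (SD, n = 3 each). The log2 fold change was 1.31 with a standard error (SE) of 0.36 and a 95% confidence interval of 0.51 to 2.10, or 1.42- to 4.29-fold. Its unadjusted p-value was 0.00437 and its adjusted p-value 0.270 (edgeR), which put it at place 267 of all genes tested by p-value. An exact two-sided permutation test gave p = 0.1, the smallest value that 3 against 3 lungs allow. By comparison, 4.91% of all genes tested had an unadjusted p-value under 0.05 with a higher level in GRdim/dim, and the libraries of 7.77% did not overlap in this direction.

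The call for Gimap3 depended on the test. DESeq2 called it with an adjusted p-value of 0.0121 and a log2 fold change of 1.30, among 0.817% of genes called higher by that tool. edgeR without the filter on low counts also called it, with an adjusted p-value of 5.94e-06, where 522 genes were called in place of 28. Over all 12 alternatives, the adjusted p-value ranged from 5.94e-06 to 0.543 and the log2 fold change from 1.01 to 1.79. The log2 fold change was lowest without GR+/+ library 3 and highest without GR+/+ library 2. The libraries also differed in sex-linked genes. Xist was above the Y-linked genes in 2 GR+/+ libraries and 1 GRdim/dim library. Among these, Gimap3 was at 11.4 and 32.0 CPM in GR+/+ and at 67.5 CPM in GRdim/dim. Among the others it was at 17.7 CPM in the GR+/+ library and at 38.2 and 44.4 CPM in the GRdim/dim libraries. Since the genotypes do not overlap in Gimap3, any split of the libraries gives this order, and the part of sex in the difference was not tested by it. With sex-linked expression as a covariate, the log2 fold change of Gimap3 was 1.45 (adjusted p = 0.245, edgeR).

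**Figure D1:**
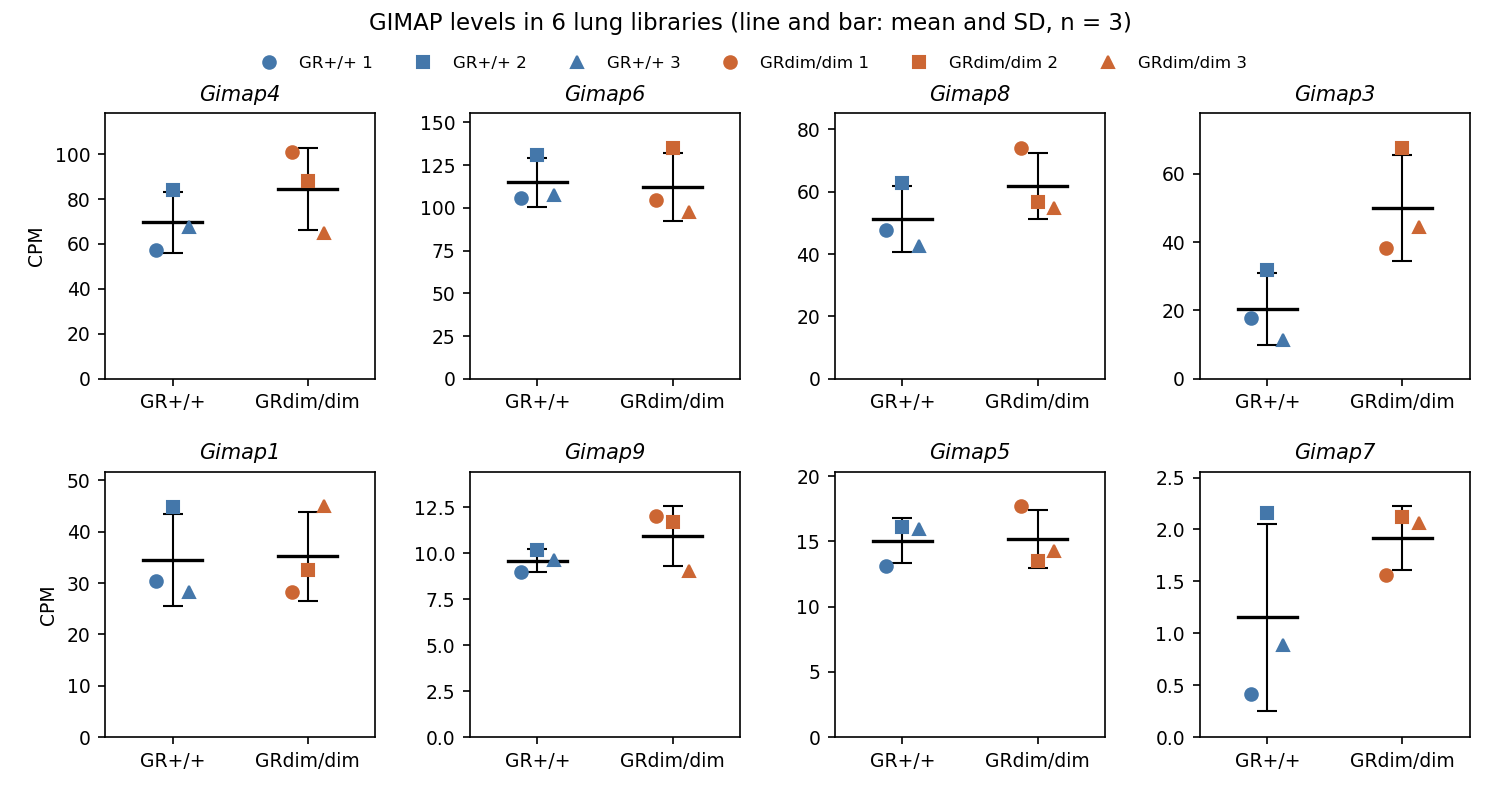
CPM of the 8 GIMAP genes (y axes, linear from 0) in 3 GR+/+ and 3 GRdim/dim lung libraries (symbols), with the mean as a line and the SD as a bar. Gimap3 is the gene whose GRdim/dim libraries (38.2 to 67.5 CPM) all sit above its GR+/+ libraries (11.4 to 32.0 CPM).

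Gimap5, the closest relative of Gimap3 and a protein of lysosomes needed for lymphocyte survival, did not separate the genotypes. Gimap5 (ENSMUSG00000043505, chr6:48746197-48754210, plus strand) reached 13.1, 16.1 and 15.95 CPM in GR+/+ and 17.7, 13.5 and 14.3 CPM in GRdim/dim. The libraries of both genotypes were mixed, and the log2 fold change was 0.01 (SE 0.22, 95% confidence interval -0.47 to 0.49, adjusted p = 0.995, edgeR). The upper end of this interval lies below the estimate for Gimap3, and the difference between both genes was not tested in the fit. Within each library, 1.35, 1.98 and 0.715 counts of Gimap3 were found per count of Gimap5 in GR+/+ and 2.16, 5.003 and 3.11 in GRdim/dim. These ratios did not overlap between genotypes (exact permutation p = 0.1). A read-through transcript annotated as Gm28053 shares 153 exon bases with Gimap5, 198 with Gimap1 and 81 with Gimap7, and its own counts were between 0 and 9 per library.

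Gimap1 encodes a Golgi protein needed for the maintenance of mature B and T cells. Gimap1 (ENSMUSG00000090019, chr6:48739054-48743795, plus strand) reached 30.4, 44.9 and 28.3 CPM in GR+/+ and 28.2, 32.6 and 45.0 CPM in GRdim/dim. One library of each genotype was high and the rest were close together, with a log2 fold change of 0.03 (SE 0.24, 95% confidence interval -0.51 to 0.57, adjusted p = 0.983, edgeR). Gimap1os, an RNA gene on the opposite strand whose exons overlap those of Gimap1 by 1107 bases, was counted 9, 15 and 14 times in the GR+/+ libraries and 11, 49 and 4 times in the GRdim/dim libraries. Without knowledge of the strand, reads in this overlap cannot be assigned to either gene.

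Gimap4 and Gimap6 were the most abundant members. Gimap4 encodes a GTPase linked to T cell death, and Gimap6 a protein that binds the autophagy protein GABARAPL2. Gimap4 (ENSMUSG00000054435, chr6:48684549-48692060, plus strand) was at 57.1, 84.2 and 67.6 CPM in GR+/+ and at 100.7, 87.9 and 64.8 CPM in GRdim/dim. A pair of GRdim/dim libraries was above all GR+/+ libraries and the other lay among them, with a log2 fold change of 0.28 (SE 0.21, 95% confidence interval -0.19 to 0.74, adjusted p = 0.749, edgeR). Gimap6 (ENSMUSG00000047867, chr6:48701582-48708225, minus strand) was at 105.7, 131.1 and 107.8 CPM in GR+/+ and at 104.4, 135.0 and 97.5 CPM in GRdim/dim. Replicate 2 was the highest in both genotypes, and the log2 fold change was -0.03 (SE 0.18, 95% confidence interval -0.43 to 0.37, adjusted p = 0.978, edgeR). Its sign turned in some alternatives, so no direction is given for it.

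Gimap8, the member with 3 GTP-binding domains, and Gimap9, of which little is known, were both slightly higher on average in GRdim/dim, within the spread between mice. Gimap8 (ENSMUSG00000064262, chr6:48647234-48660875, plus strand) was at 47.9, 63.0 and 42.5 CPM in GR+/+ and at 74.0, 56.8 and 54.7 CPM in GRdim/dim, a log2 fold change of 0.28 (SE 0.20, 95% confidence interval -0.17 to 0.72, adjusted p = 0.741, edgeR). Gimap9 (ENSMUSG00000051124, chr6:48676129-48679114, plus strand) was at 8.96, 10.2 and 9.66 CPM in GR+/+ and at 12.02, 11.7 and 9.04 CPM in GRdim/dim, a log2 fold change of 0.19 (SE 0.23, 95% confidence interval -0.33 to 0.70, adjusted p = 0.874, edgeR). In both genes, one GRdim/dim library or more lay within the GR+/+ range.

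Gimap7, which stimulates GTP hydrolysis by forming dimers through its GTP-binding domain, was the least abundant member. Gimap7 (ENSMUSG00000043931, chr6:48718621-48724636, plus strand) was counted 7, 36 and 28 times in GR+/+ and 29, 51 and 32 times in GRdim/dim, or 0.418, 2.16 and 0.889 CPM against 1.56, 2.12 and 2.07 CPM. The GR+/+ libraries spanned the whole range of the GRdim/dim libraries, and the log2 fold change of 0.74 had an SE of 0.55 and a 95% confidence interval of -0.47 to 1.95 (adjusted p = 0.741, edgeR). The estimate rested on single libraries, as it was 0.36 without GR+/+ library 1 and 1.504 without GR+/+ library 2.

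Across the family, 7 of the 8 log2 fold changes were positive, with a median of 0.23, and 0.19 for the 7 genes without Gimap3. The median over all genes tested was 0.01. The 8 values are not independent, since they come from the same 6 lungs.

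**Figure D2:**
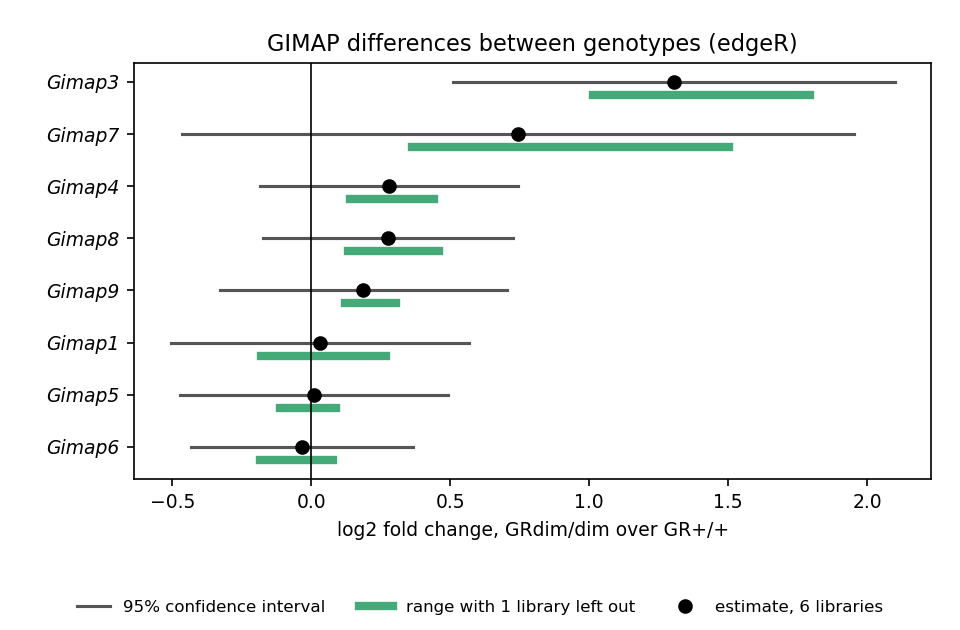
Log2 fold change of GRdim/dim over GR+/+ (x axis) for the 8 GIMAP genes with the 95% confidence interval of the edgeR fit (thin line) and the range of estimates with 1 library left out (thick line). Only the interval of Gimap3 (0.51 to 2.10) stays above 0, and the others include it.

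Per kb of the gene length given with the deposited counts, the members differed in level by a wide margin. This length is a single value per gene and does not tell its transcripts apart. The mean over all 6 libraries was 41.9 CPM per kb for Gimap4, 32.5 for Gimap6, 15.3 for Gimap8, 13.7 for Gimap3, 11.4 for Gimap1, 6.25 for Gimap9, 3.64 for Gimap5 and 0.661 for Gimap7. The ranges over libraries of Gimap4 and Gimap6 overlapped, as did those of Gimap8 and Gimap3 and of Gimap3 and Gimap1. Those of Gimap6 and Gimap8, of Gimap1 and Gimap9, of Gimap9 and Gimap5 and of Gimap5 and Gimap7 did not. The library values set Gimap3 at 4.43 to 12.4 CPM per kb in GR+/+ and at 14.8 to 26.2 CPM per kb in GRdim/dim. Gimap4 and Gimap6 were each above all 21 T cell markers examined and above all 11 NK cell markers, with Tcf7, a transcription factor of T cells, as the highest T cell marker at 17.2 CPM per kb. Among the 16 B cell markers, they were below the immunoglobulin chains Igkc and Ighm and above the other 14. Of the 17 endothelial markers, 6 were below Gimap4 and 5 below Gimap6.

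The make-up of the family within each library was examined because a ratio of genes in the same library does not depend on scaling. Gimap3 made up 6.29%, 8.33% and 4.01% of all GIMAP counts in GR+/+ and 10.1%, 16.6% and 13.4% in GRdim/dim. The exact (Clopper-Pearson) 95% intervals of these shares, which cover counting error only, ran up to 9.04% in the highest GR+/+ library and down to 9.44% in the lowest GRdim/dim library. Gimap6 made up 37.6%, 34.2% and 37.9% in GR+/+ and 27.7%, 33.2% and 29.4% in GRdim/dim, also without overlap. The shares of the other 6 genes overlapped. Since shares add up to the whole, the lower share of Gimap6 does not show a lower level, and in CPM its libraries overlapped. The sum over all 8 genes was 316 ± 58.2 CPM in GR+/+ and 372 ± 38.0 CPM in GRdim/dim (SD, n = 3 each), and the libraries overlapped.

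**Figure D3:**
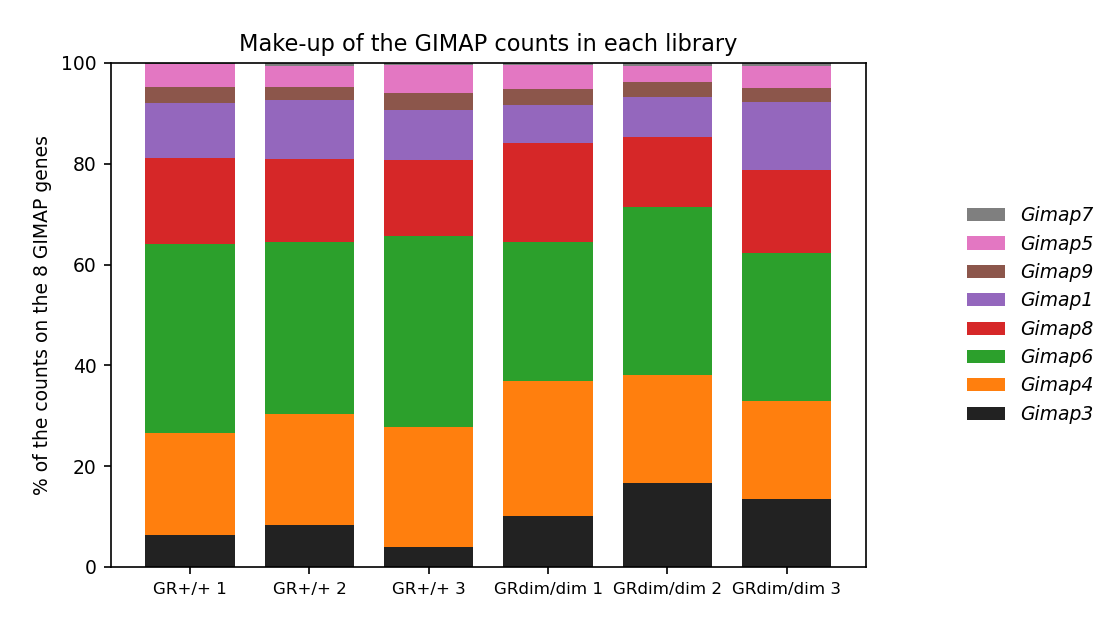
Share of each GIMAP gene (colors) in the counts of all 8 genes (y axis, %) in each of the 6 libraries (x axis). Gimap3, in black at the bottom, takes 4.01 to 8.33% in GR+/+ and 10.1 to 16.6% in GRdim/dim libraries.

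Most marker genes of lymphocytes had a higher mean level in GRdim/dim as well. In bulk lung RNA, more cells of a type and more RNA per cell cannot be told apart. Of 21 T cell markers, 7 had an unadjusted p-value under 0.05 with a higher level in GRdim/dim and 0 with a lower level, and the libraries of 6 did not overlap, all higher. Of 16 B cell markers these numbers were 11 and 8, and of the 10 NK cell markers tested they were 7 and 6, again with 0 lower. No gene of these lists was called by edgeR, and a share of 4.91% of all genes had such a p-value in this direction. The libraries of 7.77% of all genes tested did not overlap in this direction. The median log2 fold change was 0.72 over T cell, 1.14 over B cell and 1.101 over NK cell markers. By level, the leading B cell markers were the immunoglobulin chains Ighm, with 52.4 ± 21.5 CPM in GR+/+ and 244 ± 150 CPM in GRdim/dim, and Igkc, with 49.0 ± 13.9 and 193 ± 106 CPM (SD, n = 3 each). The leading T cell markers were Tcf7, with 43.9 ± 17.4 and 46.3 ± 9.31 CPM, and the kinase Lck, with 8.34 ± 2.02 and 13.3 ± 3.10 CPM. The leading NK cell markers were the granule protease Gzma, with 5.64 ± 2.73 and 11.2 ± 2.18 CPM, and the receptor Klrd1, with 3.17 ± 1.17 and 7.05 ± 2.04 CPM.

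Summed over each list, T cell markers reached 99.2 to 186 CPM in GR+/+ and 166 to 223 CPM in GRdim/dim libraries, which overlapped. B cell markers reached 108 to 227 and 262 to 805 CPM, and NK cell markers 13.1 to 30.5 and 35.8 to 57.5 CPM, without overlap. Ighm and Igkc gave much of the B cell sum. They had 27.6 and 33.5 of 108 CPM in GR+/+ library 1 and 356 and 277 of 805 CPM in GRdim/dim library 2. In these lists no defining marker was at 0 in both genotypes, with the cytokine Xcl1 the lowest at a mean of 0.0965 CPM. The part of the lymphocyte markers in the difference of Gimap3 was not tested, and the following values bear on it.

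Over the 6 libraries, the log2 CPM of Gimap3 ran closely with the lymphocyte markers, with a Pearson r of 0.95 to the mean standardized T cell markers, 0.953 to B cell and 0.899 to NK cell markers, and 0.1 to endothelial markers. These r values are descriptions over 6 points that share the genotype difference and the library scaling. Within each genotype, the libraries were in the same order by Gimap3 and by summed T cell markers. By summed B cell markers the order was the same in GRdim/dim and not in GR+/+, and by summed NK cell markers it was the same in neither genotype. Gimap7 had an r of 0.892 to the T cell markers, and Gimap5 of -0.07. For Gimap6, the highest r was to endothelial markers, at 0.678. Of the 64 r values of 8 members and 8 lists, computed after the values had been seen, the lowest was -0.952, between Gimap1 and markers of alveolar macrophages. Related to 100 CPM of T cell markers, Gimap3 was at 15.7, 17.2 and 11.5 CPM in GR+/+ and at 23.1, 30.3 and 24.7 CPM in GRdim/dim, without overlap. Tcf7 alone gave 43.9 of the mean T cell sum of 133 CPM in GR+/+ and 46.3 of 189 CPM in GRdim/dim. Its log2 fold change was 0.08, where the median of the T cell list was 0.72. This ratio thus depends on Tcf7, and a ratio without it was not computed. The B cell sum is largely that of Ighm and Igkc, and a ratio without them was not computed. Related to 100 CPM of B cell markers, Gimap3 was at 16.4, 14.1 and 6.59 CPM in GR+/+. In GRdim/dim it was at 14.6, 8.39 and 6.81 CPM, and the genotypes overlapped. They overlapped also when Gimap3 was related to NK cell markers, with 135, 105 and 54.9 CPM per 100 CPM in GR+/+ and 86.1, 117 and 124 CPM in GRdim/dim. Per count of Gimap4, Gimap3 was found 0.310, 0.380 and 0.169 times in GR+/+ and 0.379, 0.768 and 0.686 in GRdim/dim, with an overlap between GR+/+ library 2 and GRdim/dim library 1. In all, 21 such quantities within libraries were computed after the values had been seen, and 8 of them did not overlap between genotypes, so they are descriptions of these lungs.

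**Figure D4:**
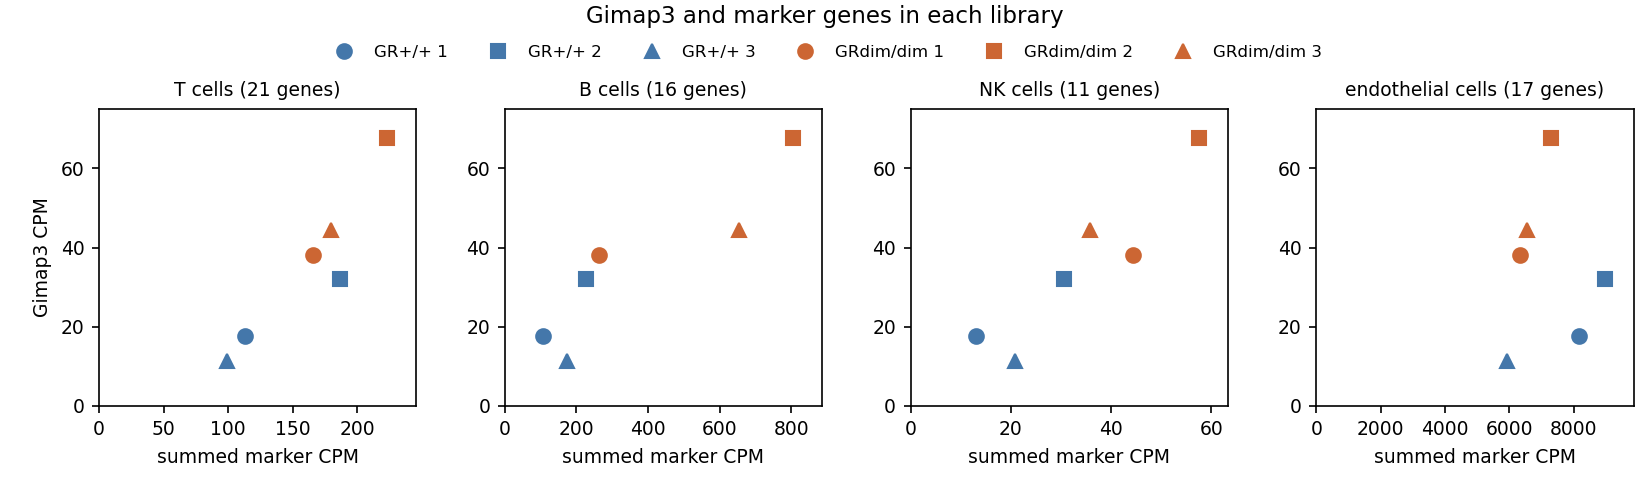
CPM of Gimap3 (y axes) against the summed CPM of marker genes of T cells, B cells, NK cells and endothelial cells (x axes) in the 6 libraries (symbols by genotype and replicate, all axes linear from 0). The r values in the text use the mean standardized log2 CPM of the markers and not the sums plotted here. They are 0.95 for T cell, 0.953 for B cell and 0.1 for endothelial markers.

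Among the members themselves, Gimap4 and Gimap9 ran together with an r of 0.945, the highest of their 28 pairs, and Gimap4 and Gimap8 with 0.82. Gimap3 had its highest r among members to Gimap7, at 0.77, and an r of -0.127 to Gimap5. Among all other genes, those closest to the mean profile of the 8 members were A730011C13Rik, with an r of 0.99, Parvg, with 0.986, Hnrnph1, with 0.985, Thoc7, with 0.985, and Traf3ip3, with 0.982, over the 6 libraries.

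**Figure D5:**
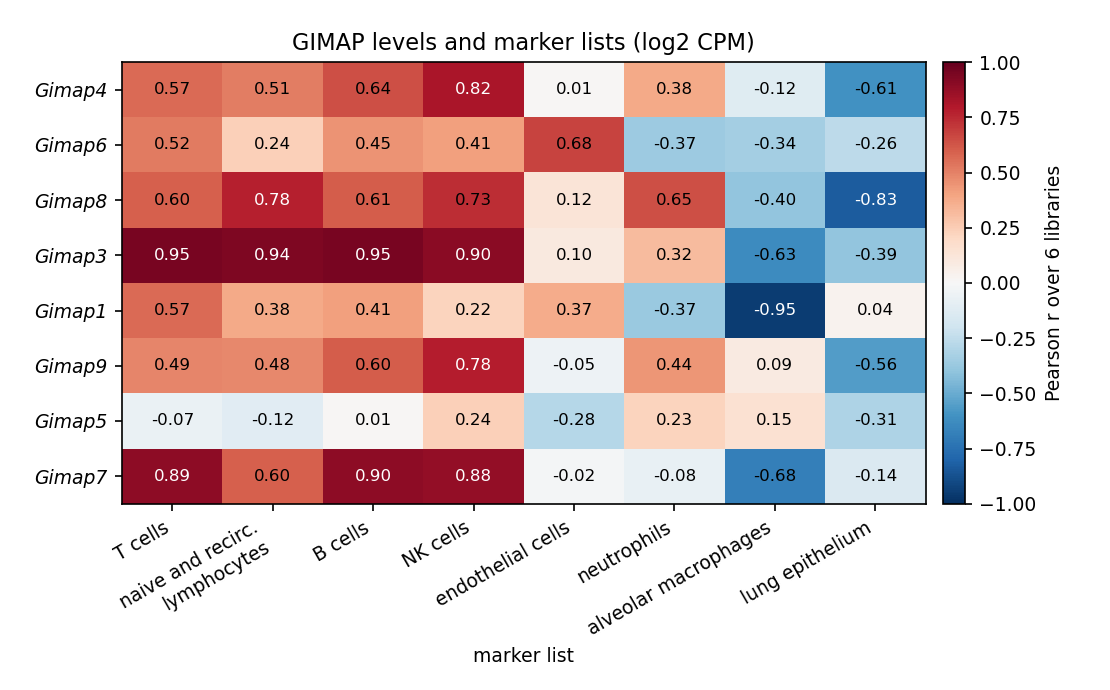
Pearson r over the 6 libraries between the log2 CPM of each GIMAP gene (rows, by falling level) and the mean standardized log2 CPM of 8 marker lists (columns). Gimap3 and Gimap7 have the highest values for T cell markers (0.95 and 0.892) and Gimap5 the lowest (-0.07).

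Other cell types were compared in the same way. Of 17 endothelial markers, 1 had an unadjusted p-value under 0.05 with a higher level in GRdim/dim and 3 with a lower level, where 4.91% and 4.68% of all genes tested had such p-values. The median log2 fold change of the list was -0.21. The leading genes by level were the receptor Eng, with 1359 ± 433 CPM in GR+/+ and 1025 ± 41.4 CPM in GRdim/dim, and the phosphatase Ptprb, with 837 ± 108 and 735 ± 164 CPM. Of the 9 neutrophil markers tested, 3 had such a p-value with a higher and 0 with a lower level, with a median of 0.85, and of 9 markers of alveolar macrophages these numbers were 1 and 1, with a median of -0.03. Summed over the list, the macrophage markers were lower in every GRdim/dim library, at 398 to 465 CPM in GR+/+ and 261 to 357 CPM in GRdim/dim. Most of this difference came from Chil3, with 253 ± 10.3 CPM in GR+/+ and 138 ± 36.5 CPM in GRdim/dim. Of the 9 genes, 6 had a negative and 3 a positive log2 fold change. Itgax was among the latter, with 26.3 ± 3.67 and 36.3 ± 6.10 CPM. Of 6 erythroid genes tested, 1 had such a p-value, with a higher level, and the list had a median of 0.52. Lung epithelium served to check the tissue, and its genes were abundant in both genotypes, with surfactant protein Sftpc at 11360 ± 3050 and 12810 ± 3562 CPM (SD, n = 3 each). Of its 6 genes, 1 had such a p-value, with a lower level.

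Genes that GIMAP proteins are known to work with, and genes of lymphocyte survival, were mostly close to 0 in their difference. This list of 20 genes holds members of the Bcl2 family, the autophagy proteins related to GABARAP and the pathway of interleukin 7, the cytokine that keeps naive T cells alive. Of the 20 genes, 2 had an unadjusted p-value under 0.05, both higher in GRdim/dim, against 4.91% of all genes, 0 were called, and the median log2 fold change was 0.03. The leading genes by level were the survival factor Mcl1, with 558 ± 24.3 CPM in GR+/+ and 560 ± 18.8 CPM in GRdim/dim, and the autophagy gene Map1lc3b, with 301 ± 25.7 and 297 ± 12.5 CPM (SD, n = 3 each). The 2 genes, named after their values were seen, were Il2rg, the receptor chain shared by interleukin 7 and related cytokines, with a log2 fold change of 0.97 (SE 0.28, adjusted p = 0.297, edgeR), and Klf2, a transcription factor of T cell recirculation and of endothelium, with 1.19 (SE 0.47, adjusted p = 0.471, edgeR). Il7r, the specific receptor chain, had 18.7 ± 6.13 and 25.2 ± 12.5 CPM. Nr3c1, the gene that carries the mutation, had 148 ± 12.2 CPM in GR+/+ and 143 ± 20.2 CPM in GRdim/dim, and counts per gene cannot show the point mutation.

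The cluster spans 124 kb of chromosome 6, and the nearest tested genes outside it were followed to see whether the difference of Gimap3 extended along the chromosome. Next to Gimap3, Tmem176b, a membrane protein of myeloid cells, was at 390 ± 6.49 CPM in GR+/+ and at 546 ± 103 CPM in GRdim/dim without overlap of the libraries (SD, n = 3 each). Its log2 fold change was 0.49 (SE 0.19, adjusted p = 0.459, edgeR). Tmem176a and Gm7932 on the same side had overlapping libraries and log2 fold changes of 0.13 and 0.46. At the far end, beyond Gimap8, Zfp775 had a log2 fold change of -0.54 (SE 0.28, adjusted p = 0.586, edgeR) with libraries that did not overlap. Repin1 and AI854703 had 0.15 and 0.13. Of all 16568 genes tested, the libraries of 1288 did not overlap with a higher level in GRdim/dim, and those of 1168 with a lower level. Between the members, the RNA genes Gm44226 and 4833403J16Rik, which lie between Gimap5 and Gimap3, had log2 fold changes of -0.58 and 0.16 with overlapping libraries.

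The starts of Gimap3 and Gimap5 are shown because these close relatives differed in their values. Both windows are RefSeq promoters of GRCm38.p6, 5′ to 3′ on the strand of the gene, with 250 bases before the start site and the first 10 after it. In Gimap3, capitals mark TTCNNNGAA, the sequence bound by STAT factors (GAS), which begins 5 bases before the start site. In Gimap5, capitals mark AGAACA on the opposite strand, one arm of the palindrome bound by the GR, which begins 12 bases before the start site.
Gimap3 (chr6:48770842-48771101, minus strand): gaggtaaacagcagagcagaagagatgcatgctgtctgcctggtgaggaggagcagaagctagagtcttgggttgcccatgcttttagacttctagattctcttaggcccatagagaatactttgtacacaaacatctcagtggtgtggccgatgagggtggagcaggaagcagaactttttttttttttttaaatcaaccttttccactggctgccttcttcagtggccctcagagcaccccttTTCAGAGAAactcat
Gimap5 (chr6:48745947-48746206, plus strand): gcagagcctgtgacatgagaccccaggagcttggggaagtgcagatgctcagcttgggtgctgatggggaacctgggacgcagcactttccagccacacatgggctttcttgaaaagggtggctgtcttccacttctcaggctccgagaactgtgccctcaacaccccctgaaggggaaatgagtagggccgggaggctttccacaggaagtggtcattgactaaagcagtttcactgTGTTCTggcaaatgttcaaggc

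A search for 5 motifs was made on both strands of the full windows, from 250 bases before to 50 after each start site, in 9 windows of the 8 genes and in 32851 windows of all genes. The full GR element, AGAACA followed after any 3 bases by TGTTCT, was in no window of the family and in 0.00913% of all windows. Its single arm, AGAACA, was in 4 windows of the family, those of Gimap4, Gimap5, Gimap6 and Gimap7, and in 19% of all windows. TTCNNNGAA was in 4, those of Gimap3, Gimap6, Gimap7 and Gimap8, and in 8.3% of all windows, and in Gimap6 it overlaps that arm. The interferon-stimulated response element, with GAAA on both sides of any 2 bases, was in none and in 3.44% of all windows. TGTGGT, the sequence bound by RUNX factors of lymphocytes, was in 3, those of Gimap1, Gimap4 and Gimap7, and in 16.8% of all windows. A match says only that these letters are present.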

How the data were processed

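Poly(A) RNA of 6 lungs, 3 GR+/+ and 3 GRdim/dim, was sequenced as 1 library per mouse. The authors deposited raw counts per gene, whole numbers without normalization. The submitters' processing notes name the build mm10 and DESeq2. The aligner, the counting tool and the use of strand are not given in the sources used here. Coordinates of all 8 members were the same in GENCODE M21 (GRCm38). Groups and replicate numbers came from the sample labels.

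Counts were tested in R 4.3.3 with edgeR 4.0.16 (filterByExpr, TMM scaling, robust quasi-likelihood fit and test), and p-values were adjusted by Benjamini-Hochberg over 16568 genes. log2 CPM used a prior count of 2. The alternatives were RLE scaling, other filters, DESeq2 1.42.0, the replicate number or sex-linked expression as a covariate, no fold threshold and leaving out each library. The procedure was run on counts simulated with the spread of these libraries, to check that it returns the fold changes put in. Nothing about the call of a single gene is drawn from that run. The members and lists were chosen with earlier results of these data known. Genes named were the members, genes that overlap them, the 3 nearest tested genes on each side, leading list genes by CPM and the 10 genes of the most similar profile. The measures of sequence, motifs and ratios within libraries were added after the values had been seen. Intervals of shares cover counting error only.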

Additional observations from a re-analysis of the deposited data

How the results depend on the processing

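Of 95 recomputed log2 fold changes of members, 84 kept their sign and their side of the threshold. Gimap3 was positive in all 12 alternatives and passed the threshold in 2, DESeq2 (1.30) and edgeR on all genes with any read (1.30), so that 1 member was called there and 0 in the other settings. With 1 library left out, its log2 fold change ranged from 1.01 to 1.79. The cause was not tested. The sign turned for Gimap1 (-0.18 to 0.27 with 1 library left out), Gimap5 (-0.11 to 0.087) and Gimap6 (-0.19 to 0.077, and 0.064 with sex-linked expression as a covariate), all close to 0. Gimap7 could not be tested with at least 10 counts in every library. Over all genes, 28 were called, against 522 without a filter, 274 with DESeq2 and 4 (without GR+/+ replicate 2) to 22 with 1 library left out. The latter counts were 12 without GR+/+ replicate 1, 17 without GR+/+ replicate 3 and 14 without GRdim/dim replicate 3. With the replicate number as a block, 34 genes and 0 members were called, and Gimap3 had a log2 fold change of 1.38 (adjusted p = 0.0792, edgeR). Deviations from the group mean in libraries of the same number had r of 0.218, 0.0361 and -0.0548. With so few libraries per group, these values cannot settle whether the numbers pair the mice. GR+/+ libraries 1 and 2 had similar totals (16638859 and 16361747 counts) and 7 and 36 counts of Gimap7.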
